A study of Mus musculus with 12 samples.

Results

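The complement genes described here are C1qa, C1qb, C1qc, C1ra, C2, C3, C4b, Cfb and Serping1. They were taken by symbol and make up 9 of the 54532 genes counted in the colon of 12 male C57BL/6 mice. All 9 passed the filter on low counts. The mice formed 4 groups of 3, in a study that asked whether ursolic acid (UA, a plant triterpenoid) prevents or treats the colitis caused by dextran sulfate sodium (DSS), a polymer that injures the colon epithelium. Mice were 6 weeks old on arrival. The DSS group drank 3% (w/v) DSS for 5 days and was gavaged with vehicle. The UA+DSS group drank the same DSS and received UA at 200 mg/kg daily from 1 day before DSS, and the DSS+UA group from 3 days after DSS had begun, for 7 and 4 days by the methods. The Con group drank no DSS and had no UA. The labels call it untreated, whereas the methods give it vehicle. Each sample is a piece of whole colon whose position along the organ is not given in the sources used here, so a fall in the number of cells of a type and a fall in their RNA cannot be told apart. A sample is named by group and replicate, as in DSS 2. Each is labelled as a replicate of its group and is taken here as a separate mouse. With 3 mice a group an exact permutation test cannot go below p = 0.1.

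Complement is a cascade of plasma and tissue proteins that marks microbes and damaged cells for uptake. The classical pathway starts when C1q, built from the products of C1qa, C1qb and C1qc, binds antibody or debris and activates the proteases C1r and C1s, which cut C4 and C2. The alternative pathway amplifies C3 cleavage through factor B, the product of Cfb, and Serping1 encodes the C1 inhibitor that holds C1r and C1s in check. The liver makes most plasma complement, while C1q comes mainly from macrophages and dendritic cells, and epithelial and stromal cells of the gut also make C3 and other components.

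The promoter windows of the genes are shown because 2 of the C1q chains, C1ra and C3 were raised together but by different sizes. RefSeq windows of 250 bases before and 50 bases after the start site (GRCm38.p6) were at hand for 4 of the 9 genes. Both strands were searched for TTGCNNAA (a C/EBP form), GGGANNNNCC (an NF-kB form), GAGGAA (a PU.1 core) and TTCNNNGAA (a STAT form), and matches stand in capitals. The windows lie at chr17:57228087-57228386 (C3), chr6:124512371-124512670 (C1ra), chr4:136886151-136886450 (C1qb) and chr4:136892865-136893164 (C1qc). C1ra is on the plus strand and the others on the minus strand. The start sites are those of RefSeq. In C1ra and C1qc they lie inside the gene's annotated span, so part of the bases before the start is within the gene.
C3: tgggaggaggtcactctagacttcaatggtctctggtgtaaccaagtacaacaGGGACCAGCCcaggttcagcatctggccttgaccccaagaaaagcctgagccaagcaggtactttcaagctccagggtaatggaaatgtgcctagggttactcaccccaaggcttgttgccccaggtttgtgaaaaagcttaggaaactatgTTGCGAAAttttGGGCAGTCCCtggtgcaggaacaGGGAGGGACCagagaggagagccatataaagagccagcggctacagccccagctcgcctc
C1ra: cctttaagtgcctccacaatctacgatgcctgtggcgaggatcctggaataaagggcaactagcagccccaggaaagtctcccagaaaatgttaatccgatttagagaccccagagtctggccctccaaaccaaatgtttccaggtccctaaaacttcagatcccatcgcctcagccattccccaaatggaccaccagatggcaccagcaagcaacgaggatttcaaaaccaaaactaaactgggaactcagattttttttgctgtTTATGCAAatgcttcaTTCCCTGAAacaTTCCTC
C1qb: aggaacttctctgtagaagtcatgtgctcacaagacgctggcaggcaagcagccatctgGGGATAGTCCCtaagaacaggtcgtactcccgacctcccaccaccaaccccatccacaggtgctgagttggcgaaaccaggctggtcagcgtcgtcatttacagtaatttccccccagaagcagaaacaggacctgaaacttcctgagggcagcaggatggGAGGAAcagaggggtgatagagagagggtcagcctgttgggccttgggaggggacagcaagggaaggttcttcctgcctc
C1qc: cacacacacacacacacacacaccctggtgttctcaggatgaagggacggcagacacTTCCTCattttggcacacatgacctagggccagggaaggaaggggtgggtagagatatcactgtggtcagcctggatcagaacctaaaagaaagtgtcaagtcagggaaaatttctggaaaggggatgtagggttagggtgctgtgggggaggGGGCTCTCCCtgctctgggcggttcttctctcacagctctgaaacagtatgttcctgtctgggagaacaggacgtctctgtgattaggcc
The C3 window held 1 C/EBP form, TTGCGAAA, whose first base lay 45 bases before the start, and 3 NF-kB forms. The C1ra window held 1 C/EBP form, 1 PU.1 core and 1 STAT form that reads as a match on both strands, all after the start. The C1qb and C1qc windows each held 1 PU.1 core and an NF-kB form, and in C1qb 2 overlapping NF-kB matches, 1 on each strand, share 9 bases. Of 32851 mouse windows, 10.8% held the C/EBP form, 20.7% the NF-kB form, 28.3% the PU.1 core and 8.30% the STAT form. A match is a description of letters, and binding was not measured.

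Counts were scaled by TMM (edgeR's composition factors) to CPM, a count relative to sequencing depth. Total counts were 15566216 to 19498383 per sample. Some libraries stood apart. DSS 2 held 7510 CPM of the neutrophil gene S100a9, against 250 and 325 in the other DSS samples. DSS 2 and DSS+UA 3 also held transcripts of the small intestine, such as Apoa4 at 306 and 66.6 CPM, against at most 0.500 in the other 10 samples, and DSS 3 held 11242 CPM over 5 pancreatic acinar genes, against 30.6 to 554 elsewhere. A colon position score (mean log2 CPM of 5 rectal Hox genes minus that of 6 caecal ones) was 5.53, -3.03 and -1.83 in Con, 0.37 to 3.10 in DSS, -5.70 to -4.16 in UA+DSS and 4.11 to 5.06 in DSS+UA, so it moved with the UA groups. The 7 hepatocyte markers summed to 10.4 to 99.4 CPM in Con, 8.56 to 789 in DSS, 3.46 to 9.68 in UA+DSS and 9.22 to 184 in DSS+UA. Apoa1 held 785 CPM of this in DSS 2 and 166 in DSS+UA 3, and Ttr 96.1 CPM in Con 1 and 28.5 in DSS+UA 2, while Alb, Fga, Serpinc1 and Ahsg were each at most 2.22 CPM in every sample. The part of these transcripts in the complement levels was not tested.

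Of the 9 complement genes, 7 were raised in DSS against Con and none was lowered by edgeR's quasi-likelihood test at an adjusted p under 0.05, where 13.9% of all 17658 genes tested were raised. In these 7 genes (C1qa, C1qb, C1qc, C1ra, C3, C4b and Serping1) every DSS sample lay above every Con sample, and over all genes 21.2% were higher in this way. The median log2 fold change of the 9 genes was 1.92, against -0.03 over all genes tested. C3 rose most, 28.5-fold, and C2 and Cfb did not pass the test. The plot of CPM by sample shows the separation of DSS from Con in the 7 genes and its absence in C2 and Cfb.

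**Figure D1:**
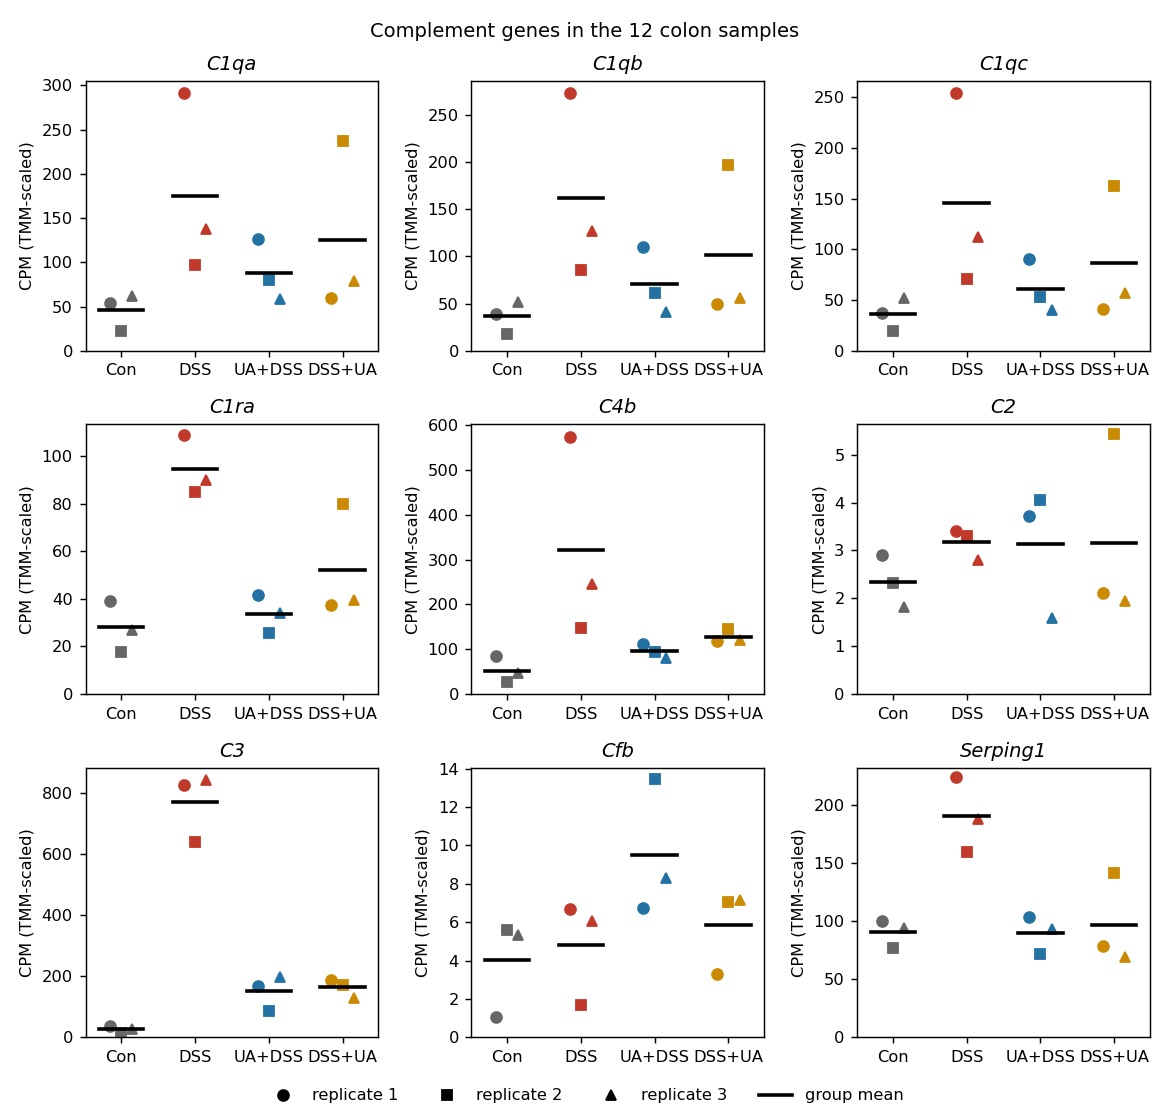
CPM (y axis, linear, from 0) of each complement gene in the 4 groups (x axis), with 1 point per mouse, the symbol giving the replicate and the bar the mean of 3. The DSS samples of C3 sit between 641 and 842 CPM and the other 9 samples between 15.03 and 198, while for C2 and Cfb the DSS and Con samples overlap.

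C3 encodes the protein on which all pathways converge, whose cleavage releases the anaphylatoxin C3a and the opsonin C3b. The gene (ENSMUSG00000024164) lies at 17:57203970-57228136 (GRCm38, minus strand). Its level was 38.5, 15.03 and 27.6 CPM in Con and 827, 641 and 842 CPM in DSS. In UA+DSS it was 168, 86.3 and 198 CPM, and in DSS+UA 189.6, 172 and 129 CPM. The UA groups therefore lay between Con and DSS without overlapping either. The log2 fold change in DSS against Con was 4.83 ± 0.42 (SE, edgeR adjusted p = 0.00043), and C3 stayed called in all 12 fits that left out 1 library. No other gene shares a stretch of 50 bases with C3, which bears on how far its reads can be assigned.

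The genes of the C1q chains lie side by side at 4:136880129-136898803, in the order C1qb (ENSMUSG00000036905), C1qc (ENSMUSG00000036896) and C1qa (ENSMUSG00000036887), all on the minus strand. C1qa was at 54.2, 22.7 and 62.4 CPM in Con, 291, 96.6 and 138 CPM in DSS, and its UA+DSS samples held 126, 79.7 and 58.9 CPM. In DSS+UA it was at 59.5, 237 and 78.8 CPM. DSS 1 and DSS+UA 2 were the high samples of their groups. C1qb was at 38.9, 18.1 and 52.1 CPM in Con and at 273, 85.9 and 127 CPM in DSS. C1qc was at 37.7, 19.1 and 52.0 CPM in Con and at 254, 70.2 and 112 CPM in DSS. In UA+DSS, C1qb was at 40.8 to 110.2 CPM and C1qc at 40.0 to 90.5 CPM, and in DSS+UA they were at 49.6 to 197 CPM and 41.1 to 163 CPM, so that each UA group overlapped both Con and DSS. The 3 chains kept nearly the same proportions, with 0.694 to 0.937 counts of C1qb and 0.661 to 0.872 counts of C1qc per count of C1qa over the 12 samples.

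In DSS against Con the log2 fold changes of C1qa, C1qb and C1qc were 1.92 ± 0.61, 2.15 ± 0.66 and 2.003 ± 0.64 (SE), with edgeR adjusted p of 0.043, 0.037 and 0.041. These calls lay near the threshold. C1qa stayed called in 3 of the 12 fits without 1 library, C1qb in 7 and C1qc in 4, and leaving out DSS 1, or any 1 Con sample, ended all 3 calls. The adjusted p of C1qa then ranged from 0.020 to 0.15.

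Most macrophage and monocyte markers rose with the C1q chains. In DSS against Con, 9 of 13 such markers rose and none fell, where 13.9% of all genes rose. Adgre1, Ly6c2, Mertk and Cx3cr1 were not called. Mertk had a log2 fold change of -0.63 ± 0.22 (SE, edgeR adjusted p = 0.055) and Cx3cr1 of 0.05 ± 0.38 (0.93). The 13 markers summed to 279 to 517 CPM in Con and 1386 to 3873 in DSS. The sums were 414 to 762 CPM in UA+DSS and 514 to 1216 in DSS+UA. In Con 1, Lyz2 alone held 245 of 500 CPM. DSS 2 departed from the rest, with the highest marker sum of the 12 samples and a C1q sum of 253 CPM against 376 and 818 CPM in the other DSS samples. Cd14 alone held 2519 CPM of that marker sum. Per unit of marker sum, the C1q sum was 0.262, 0.214 and 0.322 in Con and 0.377, 0.065 and 0.271 in DSS, which overlapped (exact two-sided permutation p = 0.9, adjusted p = 0.9 over 12 such ratio tests). The ratio of C1qa to a single marker depended on the marker. Against Cd68 it was 5.09 to 6.94 in Con and 1.57 to 4.69 in DSS, and against Cd163 7.59 to 17.0 in Con and 2.20 to 6.32 in DSS, lower in every DSS sample than in every Con sample. Against Mrc1 (1.65 to 1.80 in Con and 1.19 to 2.21 in DSS), Csf1r and Adgre1 the groups overlapped. The part of cell number in the C1q levels was not tested.

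**Figure D2:**
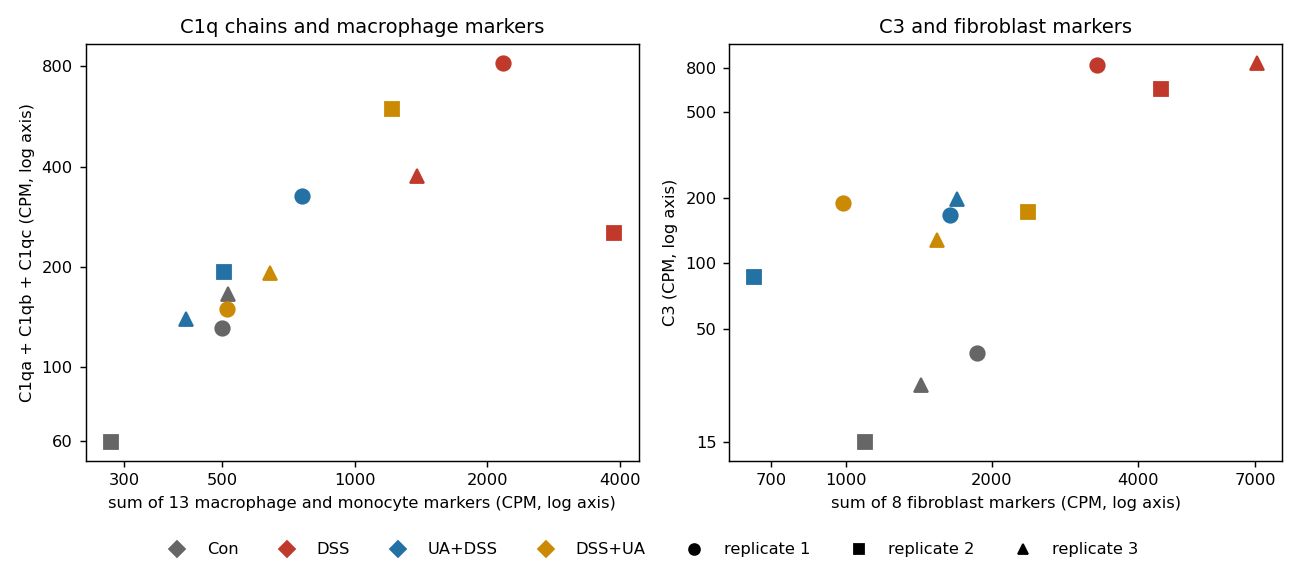
Left, summed CPM of C1qa, C1qb and C1qc (y axis, log) against summed CPM of 13 macrophage and monocyte markers (x axis, log), and right, CPM of C3 (y axis, log) against summed CPM of 8 fibroblast markers (x axis, log), 1 point per mouse. DSS 2 has the highest macrophage marker sum (3873 CPM) with a C1q sum of 253 CPM, and at fibroblast sums between 984 and 2379 CPM the Con samples hold less C3 than the UA-treated ones.

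C1ra encodes the protease C1r and Serping1 its inhibitor, and both varied less among mice of a group than the C1q chains. C1ra (ENSMUSG00000055172, 6:124512405-124523443, plus strand) was at 39.3, 17.9 and 26.8 CPM in Con and at 109, 84.7 and 89.8 CPM in DSS. The log2 fold change was 1.75 ± 0.34 (SE, edgeR adjusted p = 0.0060). In UA+DSS its levels were 41.4, 25.6 and 34.2 CPM, and in DSS+UA 37.4, 79.7 and 39.4 CPM. Of the stretches of 50 bases in C1ra, 48.0% also occur in its copy C1rb, so that reads may be split between them.

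Serping1 (ENSMUSG00000023224, 2:84765387-84775444, minus strand) was at 101, 76.6 and 93.8 CPM in Con, 224, 159.8 and 188 CPM in DSS. With early UA (UA+DSS) it was at 103, 72.2 and 93.0 CPM, and with late UA (DSS+UA) at 78.6, 141 and 69.5 CPM. It rose by 1.08 ± 0.26 (log2, SE, edgeR adjusted p = 0.014) in DSS against Con, 2.11-fold, the least of the 7 raised genes. Without Con 2 its adjusted p was 0.055. C3 counted 0.196 to 0.383 per Serping1 count in Con and 3.68 to 4.49 in DSS, which did not overlap (exact two-sided permutation p = 0.1, the smallest possible, adjusted p = 0.17 over 12 tests).

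C4b and C2 encode the proteins that together form the classical C3 convertase. C4b rose in DSS against Con and C2, at low counts, did not pass the test. C4b (ENSMUSG00000073418, 17:34728380-34743882, minus strand) was at 84.5, 26.6 and 46.4 CPM in Con and at 574, 147 and 245 CPM in DSS. DSS 1 held the most, as for C1q. The log2 fold change was 2.62 ± 0.51 (SE, edgeR adjusted p = 0.0060), and C4b stayed called in all 12 fits without 1 library. C4b shares 34.6% of its 50-base stretches with C4a, which counted at most 1.85 CPM in any sample. C2 (ENSMUSG00000024371, 17:34862604-34898265, minus strand) counted 1.60 to 5.44 CPM over the 12 samples. Its log2 fold change in DSS against Con was 0.43 ± 0.46 (SE, edgeR adjusted p = 0.50).

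Cfb encodes factor B, the protease of the alternative C3 convertase, and lies directly beside C2 at 17:34856374-34862518 (ENSMUSG00000090231, minus strand). It was at 1.09, 5.60 and 5.35 CPM in Con, 6.69, 1.70 and 6.07 CPM in DSS, 6.74, 13.4 and 8.29 CPM in UA+DSS, and its DSS+UA samples held 3.32, 7.05 and 7.15 CPM. All groups overlapped except that every UA+DSS sample was above every DSS and Con sample, and the log2 fold change in UA+DSS against DSS was 0.98 ± 0.62 (SE, edgeR adjusted p = 0.30). The annotation holds a read-through gene, Gm20547, which covers 79.5% of the exon bases of Cfb and 42.8% of those of C2 on the same strand. Gm20547 counted 0 in all 12 samples. How the counting treated reads that fit both genes is not given in the sources used here, and its part in the low levels of Cfb and C2 was not tested.

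Per kilobase of exon, the order of mean levels in Con was C1qa (44.6 CPM per kb), Serping1 (38.9), C1qb (33.4), C1qc (18.8), C1ra (9.38), C4b (9.22), C3 (5.26), Cfb (1.42) and C2 (0.606). In DSS it was C1qa (168 CPM per kb), C3 (149.7), C1qb (149), Serping1 (82.0), C1qc (75.3), C4b (56.5), C1ra (31.7), Cfb (1.71) and C2 (0.820). The first 3 of the DSS order overlapped in their ranges. Serping1 (68.7 to 96.5 CPM per kb) and C1qc (36.4 to 132) each also overlapped C1qa (92.9 to 280) and C1qb (79.0 to 251). As a share of the 9 genes' summed level per length, C3 took 2.68 to 3.99% in Con, 15.2 to 27.3% in DSS, 7.02 to 17.4% in UA+DSS and 5.21 to 16.05% in DSS+UA. C3 thus moved from a small part of the mixture to one of its largest parts in DSS.

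**Figure D3:**
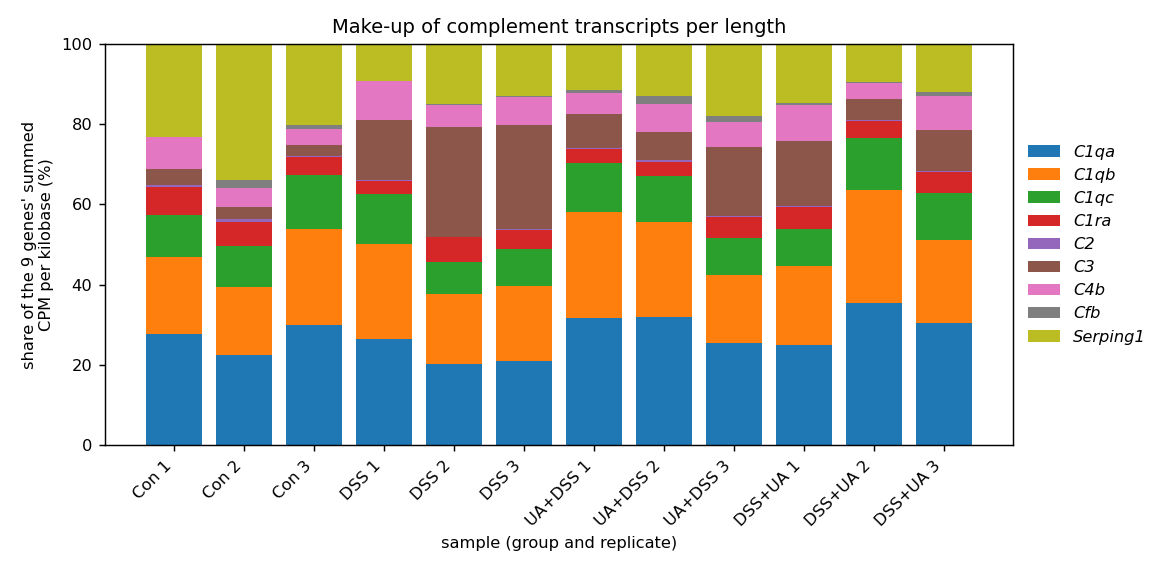
Share (y axis, percent) of each complement gene in the summed CPM per kilobase of the 9 genes, 1 stacked bar per mouse (x axis). The C3 share is under 4% in each Con mouse and reaches 27.3% in DSS 2.

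In UA+DSS against DSS, 4 of the 9 genes were lowered (C3, C1ra, C4b and Serping1) and none was raised, where 10.5% of all genes were lowered and 8.21% raised. In the same 4 genes every UA+DSS sample lay below every DSS sample, as in 21.7% of all genes. C3 fell 5.11-fold (log2 fold change -2.35 ± 0.37 SE, edgeR adjusted p = 0.0084) and stayed called in all 12 fits without 1 library. C4b was at 112, 93.7 and 79.8 CPM in UA+DSS and fell 3.38-fold (log2 fold change -1.76 ± 0.49 SE, edgeR adjusted p = 0.033). Without DSS 1 its log2 difference was -1.04 and it was not called, and leaving out any 1 UA+DSS sample or DSS+UA 3 also ended the call. C1ra changed by -1.48 ± 0.34 (edgeR adjusted p = 0.017) and Serping1 by -1.09 ± 0.26 (edgeR adjusted p = 0.020) on the log2 scale, and without UA+DSS 2 or UA+DSS 3 neither was called, nor was Serping1 without DSS 1 (edgeR adjusted p of up to 0.083 for C1ra and 0.095 for Serping1). The log2 differences of the C1q chains were -0.99 to -1.25 (adjusted p of 0.18 to 0.27) and were not called.

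The position score moved with this contrast. With the score as a covariate, none of the 9 genes was called in UA+DSS against DSS, and C3 had a log2 difference of -1.60 (edgeR adjusted p = 0.12), C4b of -0.43 (0.69), C1ra of -0.75 (0.34) and Serping1 of -0.81 (0.26). Every UA+DSS score lay below every DSS score, so the position of the colon piece and early UA cannot be told apart. In the fit without the score, 10.5% of all genes fell and 8.21% rose. Macrophage markers fell there in 9 of 13 and rose in 1, Mertk (log2 fold change 0.91 ± 0.22 SE, edgeR adjusted p = 0.020). Neutrophil markers fell in 8 of 9 and endothelial markers in 3 of 4, and none of either list rose. The endothelial sums were 108 to 133 CPM in UA+DSS against 223 to 338 CPM in DSS. Fibroblast markers fell in 6 of 8, with summed levels of 647 to 1692 CPM in UA+DSS against 3301 to 7064 CPM in DSS. The epithelial marker sum was 19170.4 to 23337 CPM in UA+DSS and 4845 to 10687 CPM in DSS. The part of these cell types in the complement levels was not tested.

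**Figure D4:**
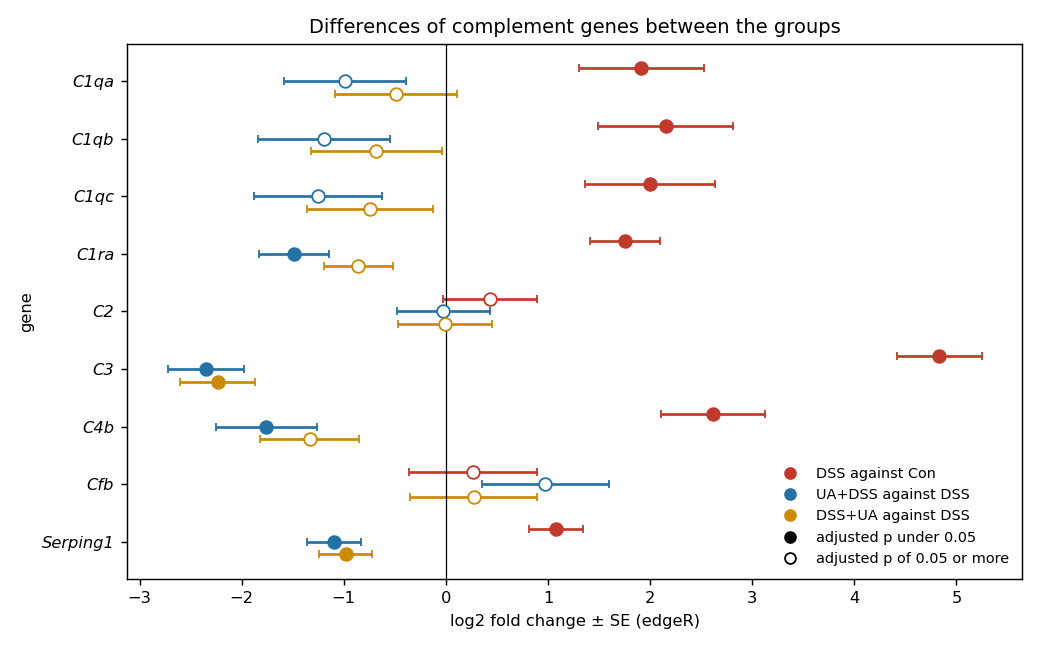
Log2 fold change (x axis, edgeR, bars ± SE) of each complement gene (y axis) in DSS against Con, UA+DSS against DSS and DSS+UA against DSS, filled where the adjusted p was under 0.05. C3 lies farthest from 0 in each of the 3 comparisons, at 4.83, -2.35 and -2.24.

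In DSS+UA against DSS, C3 and Serping1 were lowered, 2 of the 9 genes, where 5.0% of all genes were lowered. C3 fell 4.71-fold (log2 fold change -2.24 ± 0.37 SE, edgeR adjusted p = 0.013) and Serping1 1.98-fold (log2 fold change -0.98 ± 0.26 SE, edgeR adjusted p = 0.047). C1ra, C3, C4b and Serping1 each had every DSS+UA sample below every DSS sample, as did 16.4% of all genes. C4b was at 118, 144 and 121 CPM in DSS+UA and C1ra differed by -0.86 ± 0.34 on the log2 scale, and neither was called (edgeR adjusted p = 0.10 and 0.12). Without DSS+UA 3, neither C3 (log2 difference -2.07, edgeR adjusted p = 0.093) nor Serping1 (-0.78, 0.16) was called, and without DSS+UA 2 C3 was not called either (-2.32, 0.0504). Over the 12 fits without 1 library the C3 difference stayed at -2.34 to -2.07. Serping1 stayed called in 2 of 12 such fits. The position score was 4.11 to 5.06 in DSS+UA and 0.37 to 3.10 in DSS, without overlap. The position of the colon piece and late UA therefore cannot be told apart. With the score as a covariate, C3 stayed called and Serping1 was not called. Endothelial markers rose in 3 of 4 in DSS against Con, where 13.9% of all genes rose. In UA+DSS against DSS 3 of 4 fell, where 10.5% of all genes fell. All 4 fell in DSS+UA against DSS, with sums of 78.7 to 89.1 CPM against 223 to 338 CPM in DSS. Of 8 fibroblast markers 4 fell (984 to 2379 CPM against 3301 to 7064 CPM), and of 13 macrophage and monocyte markers 2 fell (514 to 1216 CPM against 1386 to 3873 CPM). The part of these cell types in the complement levels was not tested.

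Against Con, none of the 9 genes was called in UA+DSS by edgeR, in a comparison where 0.00566% of all genes were called in either direction. C3 was the 1 gene of the 9 at an unadjusted p under 0.05, with a log2 fold change of 2.48 ± 0.38 SE (edgeR adjusted p = 0.17), and all 3 UA+DSS samples lay above all 3 Con samples. DESeq2 called 1 gene there, C3, and limma-voom 0, and without UA+DSS 2 edgeR called C3 (adjusted p = 0.044). In DSS+UA against Con, C3 alone was raised (log2 fold change 2.60 ± 0.38 SE, edgeR adjusted p = 0.0050), where 9.13% of all genes were raised and 8.95% lowered. Between early and late UA (UA+DSS against DSS+UA) none of the 9 was called, where 16.8% of all genes were called in either direction. None of the 9 had an unadjusted p under 0.05 there, and DESeq2 and limma-voom called 0. The C3 difference between them was -0.12 ± 0.35 (log2, SE). With the position score as a covariate that difference turned positive and was not called. The position score was -5.70 to -4.16 in UA+DSS and 4.11 to 5.06 in DSS+UA, so position and the timing of UA cannot be told apart. Every UA+DSS score also lay below every Con score. These comparisons share samples and are not independent of each other.

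Other complement genes were taken as lists by role. In DSS against Con, 4 of 9 tested classical and lectin genes rose and none fell, where 13.9% of all genes rose. Colec12, a scavenger collectin of endothelium, was at 12.8, 10.2 and 16.3 CPM in Con and 47.3, 35.4 and 57.5 CPM in DSS (log2 fold change 1.83 ± 0.25 SE, edgeR adjusted p = 0.0020). Fcna, a ficolin of macrophages, had a log2 fold change of 1.73 ± 0.55 (edgeR adjusted p = 0.040), which was called in 3 of 12 fits without 1 library and was 1.05 without DSS 1. C1rb and C1s2, copies of the C1r and C1s genes, were nearly silent in Con, with 0 and 1 counts over 3 samples against 304 and 81 in DSS. In the summed counts of the groups, C1rb was thus at least 94.9-fold higher, with the floor set at 3 counts. The C1s2 ratio was 75.9 (exact 95% interval 13.2 to 3033). Both figures cover counting error only and not the spread among mice. Both differences were uneven among the mice. DSS 1 held 10.9 CPM of C1rb against 0.16 (3 counts) in DSS 3, and C1s2 was at 2.98, 0.55 and 0.42 CPM in DSS. In the 12 fits without 1 library, C1rb was called in 8 and C1s2 in 12. C1rb holds 48.0% of the 50-base stretches of C1ra, so reads may be split between these 2 genes. Without DSS 1, which held 226 of the C1rb and 62 of the C1s2 counts, C1rb was at least 37.3-fold higher and the C1s2 ratio was 27.3 (exact 95% interval 4.34 to 1134).

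Among genes of the alternative pathway, Cfp, which encodes properdin, the stabilizer of the C3 convertase, rose from 7.0 to 13.2 CPM in Con to 43.1 to 95.4 CPM in DSS (log2 fold change 2.85 ± 0.36 SE, edgeR adjusted p = 0.0014). It fell in UA+DSS and in DSS+UA against DSS, by 2.42 and 1.53 on the log2 scale. Cfd, factor D, which adipocytes make, ranged from 0.05 to 135 CPM over the samples and was not called. Of 4 tested terminal genes, C6 and C7 rose and none fell in DSS against Con, where 13.9% of all genes rose and 12.6% fell. The log2 fold changes of C6 and C7 were 4.76 ± 1.20 and 2.94 ± 0.78. DSS 2, however, held 1.05 and 1.25 CPM of them against 6.18 to 16.9 in the other DSS samples. Without DSS 1, Con 1 or Con 2, C7 was not called (edgeR adjusted p of up to 0.073), nor was C6 without Con 2 (0.051). All 12 counts of C6 in Con were in Con 3. Hc, which encodes C5, was at 0.05 to 2.94 CPM in Con and 0.05 to 0.45 CPM in DSS (edgeR adjusted p = 0.063). The fourth tested gene, C8g, was at 3.62, 2.33 and 3.48 CPM in Con and 1.78, 0.80 and 1.74 CPM in DSS, lower in every DSS sample, and was not called (log2 fold change -1.12 ± 0.39 SE, edgeR adjusted p = 0.055). C8a, C8b and C9 held at most 12 counts in any sample and were not tested.

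Of 12 tested regulators, 2 rose and 2 fell in DSS against Con, where 13.9% of all genes rose and 12.6% fell. Cd55, which encodes decay-accelerating factor, rose by 0.73 ± 0.24 (log2, SE, edgeR adjusted p = 0.042). Cd46 and Cpn1 fell, by 1.66 and 2.87 on the log2 scale. In the 12 fits without 1 library Cd55 stayed called in 2, Cd46 in 4 and Cpn1 in 9, and without Con 1 Cd46 stood at -0.88, while Cpn1 stood at -4.01 without DSS 3. Of 9 receptors, 7 rose and none fell. C5ar1, the C5a receptor of myeloid cells, was at 1.61 to 5.51 CPM in Con and 40.0, 287 and 29.1 CPM in DSS. Itgam and Itgb2, the chains of complement receptor 3, had log2 fold changes of 4.03 and 4.24 (2.60 and 2.77 without DSS 2, and 3.25 for C5ar1) with DSS 2 as the highest sample, as for neutrophil markers, of which 8 of 9 rose. Cd93 was at 21.5 to 23.7 CPM in Con and 53.1 to 68.9 CPM in DSS and separated without DSS 2 standing out.

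In UA+DSS against DSS, 2 of 9 classical and lectin genes, 1 of 2 alternative and none of 4 terminal fell. Of the rest, 2 of 12 regulators and 6 of 9 receptors fell, and 1 regulator, Cpn1, rose. Over all genes 10.5% fell and 8.21% rose. In DSS+UA against DSS, the counts lowered in the same order were 2 of 9, 1 of 2, 1 of 4, 1 of 12 and 5 of 9. None rose there, and 5.0% of all genes fell. The regulator counts stood near these shares. Colec12, Cfp, Cd93, C5ar1, Itgam and Itgb2 fell in both. Because DSS is in both, the 2 comparisons share samples. C7 fell in DSS+UA (-3.59 ± 0.81, log2, SE) and was not called in UA+DSS (-2.03 ± 0.75). Tested directly, UA+DSS against DSS+UA differed by 1.57 ± 0.78 for C7 (edgeR adjusted p = 0.18) and was not called.

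**Figure D5:**
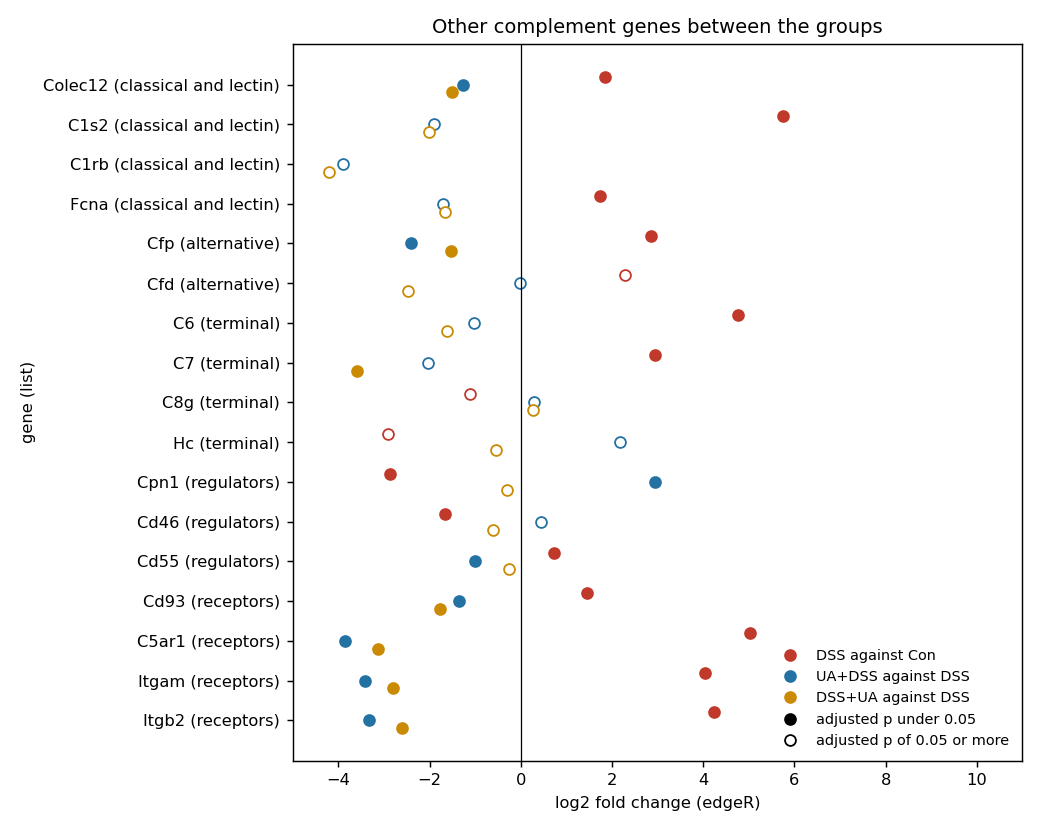
Log2 fold change (x axis, edgeR) of the complement genes other than the 9 that were named by smallest p in DSS against Con (y axis, with their list), in the 3 comparisons with DSS, filled where the adjusted p was under 0.05. C1rb has no point in DSS against Con because it counted 0 in Con, 1 regulator is not shown, and C5ar1, Itgam and Itgb2 sit at the ends of their rows at 5.03, 4.03 and 4.24 in that comparison.

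Genes of the signals known to induce complement were set beside the 9. Of 8 tested, 6 rose in DSS against Con (Il6, Il1b, Tnf, Cebpb, Stat3 and Nfkb1) and none fell, where 13.9% of all genes rose. Irf1 (log2 fold change -0.50 ± 0.49) was not called, and Ifng stayed under 1 CPM in every sample. Il6 was at 0.00, 0.06 and 0.05 CPM in Con and 7.12, 10.4 and 26.6 CPM in DSS. Cebpb, which encodes a C/EBP factor, was at 11.6 to 16.4 CPM in Con and 109.7, 509 and 91.4 CPM in DSS (log2 fold change 4.16 ± 0.60, edgeR adjusted p = 0.0025), 19.9 to 22.7 CPM in UA+DSS and 40.5 to 51.7 CPM in DSS+UA. Without DSS 2, the highest sample, the log2 fold change of Cebpb was 2.93 and it stayed called. Stat3 rose from 98.3 to 118 CPM in Con to 277 to 353 CPM in DSS, and was at 154 to 183 CPM in UA+DSS and 195 to 213 CPM in DSS+UA. Il1b and Tnf were highest in DSS 2, at 3011 and 249 CPM, and without it their log2 fold changes went from 10.3 to 7.29 and from 5.71 to 1.81, and Tnf was not called (edgeR adjusted p = 0.096), nor was it without any 1 Con sample. In UA+DSS against DSS 5 of the 8 were lowered, where 10.5% of all genes fell. In DSS+UA against DSS 1 of the 8 was lowered, Cebpb (edgeR adjusted p = 0.035), where 5.0% of all genes fell. Stat3 (0.051), Il1b (0.094), Il6 (0.14) and Tnf (0.19) were not called there.

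The 9 genes did not all share one profile over the 12 samples. As a measure of likeness, the root mean square difference between centred log2 CPM profiles was 0.128 to 0.138 among the C1q chains, 0.378 between C1ra and Serping1 and 0.974 between C3 and C4b. It was 1.98 between C3 and Cfb, the largest of the 36 pairs. Among 13704 other genes, the profiles most like C1qa were Lair1, Apoe and Ms4a7, those most like C1qb were Lair1, Lyz2 and Apoe, and those most like C1qc Ms4a7, Apoe and Lyz2, at 0.327 to 0.373. The C1ra profile was most like Renbp, Thy1 and Adamts14 (0.241 to 0.288), and the Serping1 profile most like Cmtm3, C1s1 and Anxa6 (0.175 to 0.220). For C4b the nearest included Vcam1 (0.371) and Apoe (0.419). The nearest genes to C3, Ereg, Col18a1 and Ms4a6d, lay at 0.591 to 0.598, where C3's own profile had a root mean square of 1.79. For C2 and Cfb, whose own profiles varied by 0.487 and 0.931, the nearest were Blvrb, Ctsh and Slc41a3 (0.265 to 0.280) and Bglap3, Acadvl and Srp54a (0.417 to 0.457). All genes, alike or not, come from the same 12 libraries, and what made profiles alike was not tested.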

How the data were processed

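Colon RNA of 12 mice was sequenced. The authors checked the reads with FastQC, mapped them to GRCm38 and took read counts per gene with HISAT2, as the methods state. The submitters' processing notes also name Cuffdiff. The deposited values are counts as the authors made them, whole numbers for each Ensembl gene with no normalization. The sources used here do not give tool versions, the use of strand or how multiply matching reads were counted.

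Groups came from the labels. In R 4.3.3, edgeR 4.0.16 kept 17658 genes (filterByExpr), applied TMM factors and fitted all 12 samples in 1 robust quasi-likelihood model, because each group held 3. Adjusted p is Benjamini-Hochberg over all tested genes, with a threshold of 0.05, and the SE is the log2 fold change divided by the square root of F. The step was tested on simulated data. Log2 CPM used a prior count of 2, and levels per length the GENCODE M21 exon union (GRCm38). Ratios of CPM or counts were compared by exact permutation in Python 3.11.15 with scipy 1.17.1. Alternatives were DESeq2 1.42.0, limma-voom (limma 3.58.1), other scalings and filters, a fit of the 2 groups, a replicate block, the position score as covariate and leaving out each library.

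The members and lists were chosen with earlier results of these data known. All 9 members are given, other complement genes by the 4 smallest p of each list in DSS against Con, and the most alike genes by smallest root mean square difference. The results for 2 genes that these rules take are not reported here. The genes of the small intestine were chosen after their values were seen. Total counts of 15566216 to 19498383 limit precision for genes of few counts, such as C2 (30 to 88 counts a sample).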

Additional observations from a re-analysis of the deposited data

Results flagged for a closer look

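Both chains of carboxypeptidase N, which trims the anaphylatoxins C3a and C5a, differed between early and late UA, in opposite directions, by a test of the difference itself (edgeR). Of 12 tested regulators, 1 was raised and 1 lowered in this comparison, where 16.8% of all genes were called in either direction. The count of regulators called therefore stood near the share of all genes. Cpn1, the catalytic chain, was at 17.1, 30.0 and 23.8 CPM with early UA, and its 3 DSS+UA samples held 2.69, 2.35 and 2.44 CPM, a log2 difference of 3.24 (adjusted p = 0.018). Cpn2, the stabilizing chain, was at 0.38, 0.25 and 0.27 CPM with early UA, and its 3 DSS+UA samples held 5.06, 3.96 and 6.15 CPM, a log2 difference of -4.05 (adjusted p = 0.024). Con 1, with a position score of 5.53, held 5.12 CPM of Cpn1 and 1.40 CPM of Cpn2, against 29.3 to 33.5 and 0.06 to 0.11 CPM in the other Con samples. The position scores of UA+DSS and DSS+UA did not overlap, so position and the timing of UA cannot be told apart here.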

How the results depend on the processing

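Of the 9 genes, 7 were called in DSS against Con, 4 for early UA (UA+DSS against DSS), 2 for late UA (DSS+UA against DSS), 0 in UA+DSS against Con, 1 in DSS+UA against Con and 0 in UA+DSS against DSS+UA. Without a filter the first 2 counts were 4 and 3, with the 3 C1q chains lost from the first and C4b from the second. With the position score as a covariate it was 4, and the next 2 counts were 0 and 1. A fit of the 2 groups alone gave 5, 3 and 1 in the first 3 comparisons, without C1qa and C1qc, C4b and Serping1 respectively. DESeq2 gave 3 in DSS+UA against DSS (C4b added), 1 in UA+DSS against Con and 3 in DSS+UA against Con. Leaving out 1 library gave 3 to 7, 1 to 4, 0 to 2, 0 to 1, 1 to 3 and 0 calls in the order above, the lowest without Con 2 in the first, without UA+DSS 2 or UA+DSS 3 in the second and without DSS+UA 3 in the third, and the highest without UA+DSS 2 in the fourth and without Con 1 in the fifth. Without both DSS 2 and DSS+UA 3, an alternative chosen after seeing the data, the counts were 6, 4, 0, 0, 1 and 0. The values without 1 library for genes other than the 9 were also added after seeing the data. Replicate numbers did not pair the samples (18 same-numbered pairs, r from -0.22 to 0.19, 5 over 0.1). With the replicate block the counts were 4, 4, 1, 0, 2 and 0.

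Directions turned for genes that were not called. With the position score, the log2 difference was 0.21 for C2 and -0.63 for Cfb in UA+DSS against DSS, and 0.98 for C3 in UA+DSS against DSS+UA. Without a filter, C2 stood at 0.019 in DSS+UA against DSS. Without DSS 2 and DSS+UA 3, C2 stood at 0.0019 in UA+DSS against DSS and at 0.29 in DSS+UA against DSS, and Cfb at -0.29 there. Leaving out 1 library, Cfb ranged from -0.18 to 0.67 in DSS against Con and from -0.11 to 0.60 in DSS+UA against DSS, C2 from -0.26 to 0.29 in UA+DSS against DSS and from -0.69 to 0.26 in DSS+UA against DSS, C1qa from -1.39 to 0.11 in DSS+UA against DSS, and C3 from -0.38 to 0.16 in UA+DSS against DSS+UA. The cause was not tested. C3, C1ra and C4b stayed called in DSS against Con under every alternative run. Library-size scaling moved the median of all genes by -0.13 (log2) in DSS+UA against DSS, with 140 raised and 1003 lowered genes against 448 and 883, and each count of calls among the 9 genes was as in the first sentence.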

Other observations

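Mbl2, which encodes mannose-binding lectin, counted 95 in DSS 2, 27 in DSS+UA 3 and 0 in the other 10 samples. Genes of the small intestine, looked at after their values were seen, were high in the same 2 samples, Apoa1 at 785 and 166 CPM, Fabp1 at 197 and 61.4 CPM and Lct at 61.3 and 15.5 CPM. The CPM ratio of DSS 2 to DSS+UA 3 was 3.18 for Mbl2 and 3.16 to 4.73 for Apoa1, Apoa4, Fabp1, Lct and Sis. Sis was also at 32.4 CPM in UA+DSS 2.

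Cfd, which encodes factor D, was at 135 CPM in DSS 1, 90.1 and 72.6 CPM in UA+DSS 1 and UA+DSS 2 and 0.05 CPM in Con 1. Adipoq, a gene of adipocytes, was at 10.1, 13.5, 5.69 and 0.00 CPM in the same 4 samples. The other adipocyte markers did not all follow. The 5 listed markers, Cfd and Adipoq among them, still summed to 54.3 CPM in Con 1. In DSS against Con, Plin1 had a log2 fold change of -0.70 ± 1.38 and Cfd of 2.28 ± 1.33 (SE, edgeR). Neither was called.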
